A study of Homo sapiens with 21 samples.

Results

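Argonaute-crosslinked RNA clusters that were annotated to non-coding transcripts or to transcription termination sites (TTS) were described in HK-2 cells, an immortalised line from human kidney proximal tubule. All clusters whose annotation, with spaces trimmed, read non-coding or TTS were taken from 3 deposited PAR-CLIP cluster lists. They made up 821 of 36812 clusters (2.23%, Wilson 95% interval 2.08 to 2.39%) in the AGO2 list from cells given cyclosporine A, 1208 of 56985 (2.12%, 2.00 to 2.24%) in the AGO2 list from vehicle cells, and 404 of 19306 (2.09%, 1.90 to 2.30%) in the list for all Argonaute proteins (pan-AGO). For comparison, 3′ UTR clusters numbered 530, 748 and 196 in the same 3 lists. The intervals cover counting error only, because each list is a single set of clusters with no replicate.

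The study set cells given 5 µg/mL cyclosporine A, an immunosuppressant that inhibits calcineurin and can injure the kidney tubule, against cells given 0.1% ethanol as vehicle. Treatment lasted 24 h before crosslinking for AGO2 PAR-CLIP, with 2 libraries per treatment, and 48 h for poly(A)-selected mRNA-seq and for miRNA-seq, with 4 libraries per treatment each. For PAR-CLIP, cells took up 4-thiouridine at 100 µM and were irradiated at 365 nm with 0.15 J/cm2, and the single pan-AGO library carries no stated treatment. All libraries came from the same cell line, nothing in the labels says that they came from separate cultures, and p-values therefore measure only the spread between libraries, which may be technical.

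Argonaute proteins carry miRNAs and bind RNAs that pair with the miRNA seed, its bases 2 to 8, most often in the 3′ UTRs of mRNAs. In PAR-CLIP, 4-thiouridine in the RNA is crosslinked to a protein that touches it, so a cluster marks a place where Argonaute lay close to the RNA. Long non-coding RNAs and transcribed pseudogenes can carry such seed matches too, and abundant structured RNAs such as rRNA and tRNA are commonly recovered with RNA-binding proteins.

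The sequences below carry the findings on seed matches. The mature miRNAs come from RefSeq with their seed in capitals, and the clusters are those of 30 bases or less from the cyclosporine A list that held a 7-base match to the seed of 1 of the 20 most abundant miRNA families and overlapped a vehicle cluster. Capitals in the clusters mark the bases that pair with the seed.
hsa-miR-205-5p: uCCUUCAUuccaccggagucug
YAF2: ctatcacaggcaATGAAGGac
LOC441455: gATGAAGGacgtgggagctgcc
OR51D1: ATGAAGGtatttggggaata
hsa-miR-181a-5p: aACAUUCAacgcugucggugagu
CPT1A: cagtgTGAATGTaggttatcatt
LINC00670: caaccatgtggataggcTGAATGT
hsa-miR-92a-3p: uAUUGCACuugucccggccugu
OIP5-AS1: aaaccgggatatGTGCAATag
VPS13A-AS1: cttattaataGTGCAATggcaaaatg
hsa-miR-222-3p: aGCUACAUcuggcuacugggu
SPRYD3: ggaATGTAGCtggccttggtga
hsa-miR-7-5p: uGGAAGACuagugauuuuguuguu
SIGLEC12: tccaagcctaaGTCTTCCtc
hsa-miR-200a-3p: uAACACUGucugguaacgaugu
LOC400710: tgCAGTGTTgcgtgtttcttc

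In hg19, the build of the lists, these clusters lie at chr12:42550429-42550449 (YAF2, minus strand), chr9:99489198-99489219 (LOC441455, plus), chr11:4662421-4662440 (OR51D1, plus), chr11:68522380-68522402 (CPT1A, minus), chr17:12540397-12540420 (LINC00670, minus), chr15:41592690-41592710 (OIP5-AS1, plus), chr9:79791095-79791120 (VPS13A-AS1, plus), chr12:53457459-53457480 (SPRYD3, minus), chr19:51993721-51993740 (SIGLEC12, minus) and chr19:50570991-50571011 (LOC400710, minus). LOC441455 was annotated non-coding and the other 9 TTS. By the RefSeq strand of the named gene (GRCh38.p14), the clusters at YAF2, CPT1A, OIP5-AS1, SPRYD3 and SIGLEC12 lay on the gene's own strand, and those at LINC00670, VPS13A-AS1 and LOC400710 on the opposite strand. A further pair of clusters met the rule at PRNCR1 on chromosome 8, with an hsa-miR-27b-3p match, and its letters are not shown.

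The name of the annotation class did not mean that the gene itself was non-coding. Of the 270 nuclear gene symbols with a non-coding cluster in the cyclosporine A list, 114 (42.2%) belonged to protein-coding genes in RefSeq, 106 (39.3%) to long non-coding RNAs and 40 (14.8%) to pseudogenes. In the vehicle list, 155 of 388 symbols (39.9%) were protein coding, 176 (45.4%) long non-coding and 51 (13.1%) pseudogenes. In the pan-AGO list, 55 of 142 (38.7%) were protein coding and 70 (49.3%) long non-coding. The TTS clusters sat mostly at protein-coding genes, with 360 of 497 symbols (72.4%) in the cyclosporine A list, 534 of 756 (70.6%) in the vehicle list and 188 of 250 (75.2%) in the pan-AGO list. miRNA genes gave 33 TTS symbols (6.64%) in the cyclosporine A list and 57 (7.54%) in the vehicle list, and snoRNA genes gave 10 (2.01%) in the cyclosporine A list and 17 (2.25%) in the vehicle list. The width of the window that the annotation counts as TTS was not stated in the labels or file headers.

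The clusters were short, spread over many genes and even between strands. Their median width was 20 bases in the cyclosporine A list, 20 in the vehicle list and 19 in the pan-AGO list. The 804 nuclear clusters of the cyclosporine A list carried 763 symbols, the 1199 of the vehicle list 1133, and no symbol had more than 7 clusters in a list. The plus and minus strands held 408 and 413 clusters in the cyclosporine A list, 622 and 586 in the vehicle list, and 211 and 193 in the pan-AGO list. Among TTS clusters assigned to protein-coding transcripts, 158 of 293 in the cyclosporine A list (53.9%, 48.2 to 59.5%) and 236 of 432 in the vehicle list (54.6%, 49.9 to 59.3%) lay on the strand of the gene, against 382 of 602 vehicle 3′ UTR clusters (63.5%, 59.5 to 67.2%). The RefSeq strand was known for 81.6% and 81.2% of those TTS clusters and for 80.5% of those 3′ UTR clusters. It was known for fewer than 80% of the other classes, where the comparison is void. Clusters are named below by the gene that their list assigns, on whichever strand of that gene they lay.

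The score of a cluster, whose unit is not stated, was used only within a list, to rank clusters and to describe how the score was spread over them. Members lay in the middle of their lists, with a median rank at 50.8% of the list length for cyclosporine A, 48.5% for vehicle and 49.3% for pan-AGO. A handful of clusters nevertheless held much of the score: the top 10 member clusters held 55.5% of all member score in the cyclosporine A list, 48.5% in the vehicle list and 66.7% in the pan-AGO list. In the same order of lists, the top 10 clusters held 79.5%, 70.9% and 66.7% of the score of clusters annotated promoter-TSS. For 3′ UTR clusters it was 34.3%, 41.1% and 53.6%. The top 1% of each list held 11 members with cyclosporine A (1.34% of members), 17 with vehicle (1.41%) and 9 in the pan-AGO list (2.23%).

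Of 821 member clusters of the cyclosporine A list, 371 overlapped a vehicle cluster by at least 1 base on the same strand (45.2%, 41.8 to 48.6%), against 48.3% (47.8 to 48.8%) of all other clusters in the list and 32.1% (28.2 to 36.2%) of 3′ UTR clusters. Of 1208 vehicle members, 359 overlapped a cyclosporine A cluster (29.7%, 27.2 to 32.4%), against 31.2% of the other vehicle clusters. The overlap with the pan-AGO list was 17.2% for cyclosporine A members and 13.7% for vehicle members. Seen from the pan-AGO list, 34.7% of members overlapped a cyclosporine A cluster and 40.6% a vehicle cluster. The vehicle list was longer than the cyclosporine A list, so each share depends on the length of the list it is looked up in.

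Presence in both AGO2 lists went with score. In the top 10% of the cyclosporine A list, 65 of 86 members (75.6%, 65.5 to 83.4%) had a vehicle partner, against 82.6% (81.3 to 83.8%) of the other clusters there, and in the lower 50% it was 108 of 421 members (25.7%), against 27.7% of the other clusters. When the cyclosporine A list was split by score into 10 bins, the share for the other clusters lay within the members' interval in every bin. In the vehicle list it lay outside that interval in the top bin, with 68.6% of members (59.9 to 76.2%) against 77.6% of other clusters, and in the ninth bin, with 4.46% (1.92 to 10.0%) against 10.7%. A difference in presence between treatments cannot be tested on 1 list each.

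**Figure D1:**
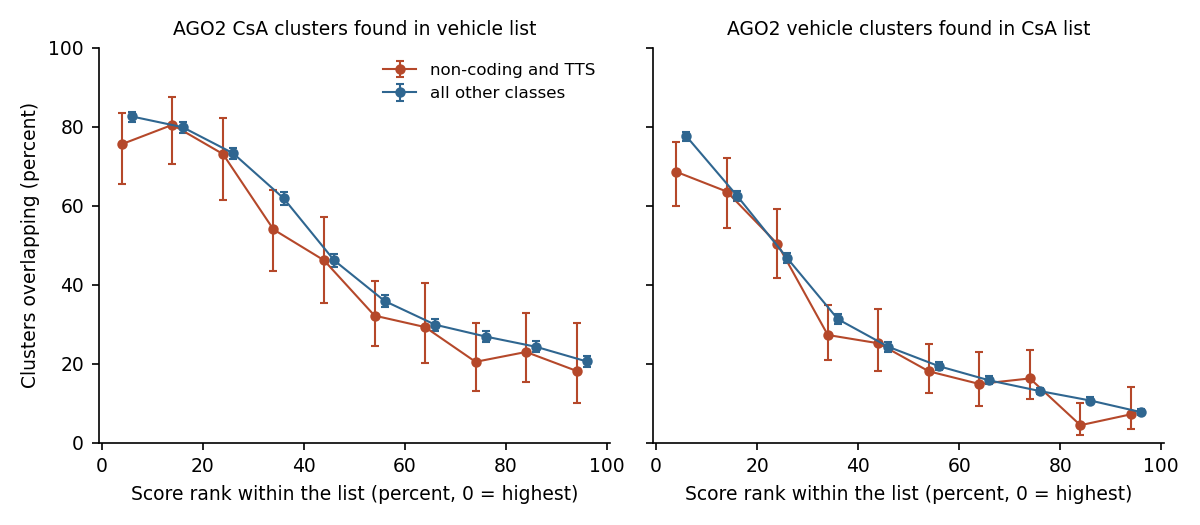
Share of clusters that overlap a cluster of the other AGO2 list (y axis, percent) against score rank within the list in bins of 10% (x axis, highest scores at the left), for non-coding and TTS clusters (red) and all other classes (blue), with Wilson 95% intervals. In the left panel the members fall to 18.2% in the lowest bin, against 75.6% in the highest.

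Overlapping members of the 3 lists merged into 1870 nuclear loci. Of these, 432 were seen only in the cyclosporine A list, 804 only in the vehicle list and 221 only in the pan-AGO list. The AGO2 lists shared 232 loci that the pan-AGO list lacked, and 119 loci were in all 3 lists, 38 of them non-coding and 81 TTS. The loci in all 3 lists had median ranks at 20.6% of the cyclosporine A list, 13.9% of the vehicle list and 23.8% of the pan-AGO list. At the level of symbols, 126 non-coding symbols were in both AGO2 lists, which is 46.7% of those in the cyclosporine A list and 32.5% of those in the vehicle list, and for TTS it was 239 symbols, 48.1% and 31.6% of the same 2 lists.

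**Figure D2:**
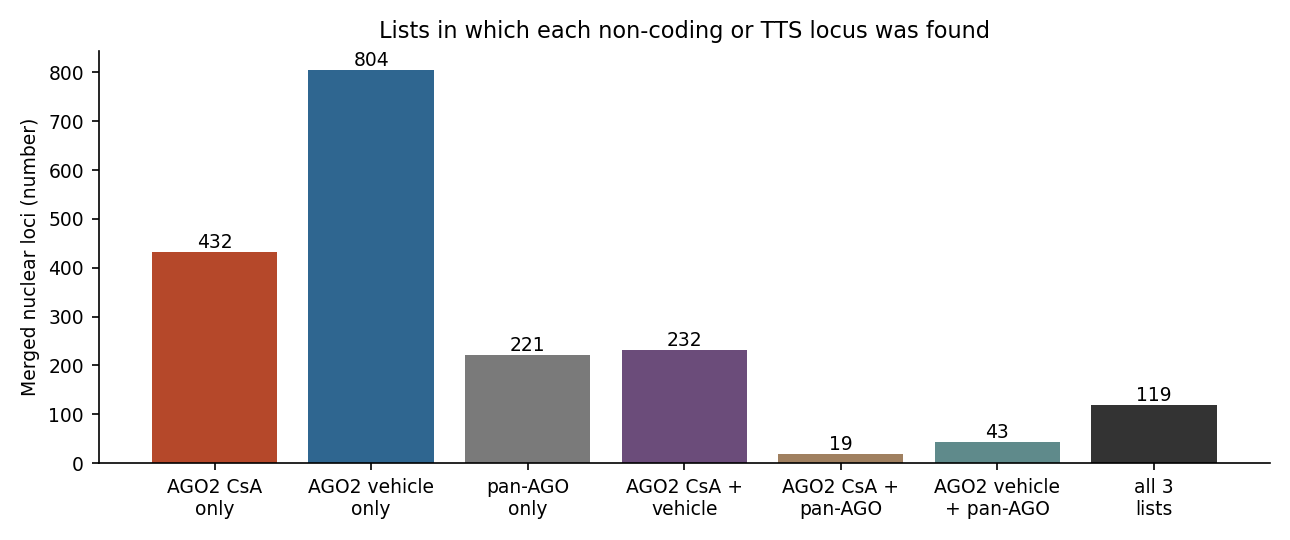
Number of merged nuclear non-coding and TTS loci (y axis) by the lists in which they were found (x axis). The cyclosporine A list alone held 432 loci and the vehicle list alone 804, and 119 loci were in all 3 lists.

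Several of the highest-scoring clusters named genes with little or no mRNA in these cells. Of the non-coding clusters, the highest in both AGO2 lists apart from chromosome M was at EHHADH-AS1, the antisense gene of the peroxisomal enzyme gene EHHADH, at chr3:184898396-184898420 on the plus strand. It ranked 138 in the cyclosporine A list, 146 in the vehicle list and 79 in the pan-AGO list. The level of EHHADH-AS1 was not analysed here. GBP1P1, a pseudogene of the interferon-induced GTPase GBP1, had a cluster at chr1:89889960-89889982 with rank 717 with cyclosporine A, 1212 with vehicle and 609 in pan-AGO, and it had 0 counts in all 8 mRNA libraries. The next cluster sequences are shown because they recur in both AGO2 lists, with capitals for the bases that a vehicle cluster also covers.
EHHADH-AS1: AGTTTGAGAGGACTCAGGAGAAGGa
GBP1P1: AGGGTCCAGTTGCTGGAAGAGCa
MEG3: TGGGTGTGCTTGTGGACTcc
SNHG11: GTCAGTTGGTCCCACTCCTTC

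MEG3, an imprinted long non-coding RNA, had its cluster at chr14:101320918-101320937, annotated TTS, with rank 981 in the cyclosporine A list and 1230 in the vehicle list, yet 0 counts in every mRNA library. The TTS clusters at KRT32, a hair keratin, ranked 82 with cyclosporine A, 323 with vehicle and 300 in pan-AGO, and the gene had 7 counts over all 8 mRNA libraries. KLHL33 ranked 91, 74 and 27 in the same lists, with 16 counts in all. CSN2, which encodes the milk protein beta-casein, ranked 473, 2702 and 570 and had 0 counts, as did LINC00052, ranked 1493 with cyclosporine A and 2161 with vehicle, and IL1RL1, the receptor of interleukin 33, ranked 15077 with cyclosporine A and 2043 with vehicle. A count of 0 in all 8 libraries of 3965431 to 7041604 counts allows a level of up to 0.426 to 0.757 CPM, the library's count scaled by its total, taking 3 counts as the limit.

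Other high-scoring clusters sat at genes that were expressed. MCM2, a subunit of the replicative helicase, had a non-coding cluster at rank 1267 with cyclosporine A and 1418 with vehicle. Its mRNA stood at 209, 188, 176 and 188 CPM in the cyclosporine A libraries, against 170, 193, 196 and 199 CPM in the vehicle libraries. The groups overlapped, and MCM2 did not pass the test (log2 fold 0.01 ± 0.06 SE, edgeR adjusted p = 0.903). CSF1, the macrophage growth factor, had a TTS cluster at rank 736 with cyclosporine A and 210 with vehicle, and its mRNA rose by a log2 fold of 0.22 ± 0.06 (204 ± 7.05 CPM with cyclosporine A against 175 ± 6.59 CPM with vehicle, SD, n = 4 each, edgeR adjusted p = 0.00093). In bulk samples, fewer cells with an RNA and less of it per cell cannot be told apart. SPG21 ranked 2848 and 506 in the same lists, and its mRNA rose by 0.54 ± 0.09 on the log2 scale (edgeR adjusted p = 6.5e-07). The SPG21 clusters lay on the plus strand, and the strand of the gene is not given here. CCDC115, a vacuolar ATPase assembly factor, ranked 319 and 447, with a log2 fold of -0.25 ± 0.12 that did not pass (edgeR adjusted p = 0.0637), although it passed with adjusted p values of 0.0344 and 0.0361 when cyclosporine A library 2 or vehicle library 4 was left out.

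The remaining clusters with the highest scores were at LOC100507283, ZNF213-AS1, the miRNA gene MIR663B and ADAMDEC1, each in all 3 lists with its best rank between 143 and 709, at MIR1273E in the cyclosporine A list alone (rank 250) and at LOC101929570 in the vehicle list alone (rank 241). ADAMDEC1, a metalloprotease gene, had 0 counts in mRNA and MIR663B had 1 count. The clusters of ADAMDEC1 and of IL1RL1, named above, lay on the minus strand, and the strand of these genes is not given here. FKBP1AP1, a pseudogene of FKBP1A, had a non-coding cluster in the cyclosporine A list (rank 1837) and a TTS cluster elsewhere in the vehicle list (rank 12705). It rose by a log2 fold of 0.58 ± 0.22 (edgeR adjusted p = 0.0187), a call lost with DESeq2 (adjusted p = 0.0847), without cyclosporine A library 3 (adjusted p = 0.0596) and without vehicle library 1 (adjusted p = 0.055).

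Over all members, the mRNA table held 604 of 763 symbols of the cyclosporine A list (79.2%) and 870 of 1133 of the vehicle list (76.8%). Of the matched genes, 100 (16.6%, 13.8 to 19.7%) in the cyclosporine A list and 141 (16.2%, 13.9 to 18.8%) in the vehicle list had 0 counts in all 8 libraries, against 29 (6.04%, 4.24 to 8.54%) and 44 (6.31%, 4.74 to 8.37%) of the genes with 3′ UTR clusters, and 22.1% of all genes in the table. Their median vehicle level was 8.2 CPM for the cyclosporine A list and 10.3 CPM for the vehicle list, against 31.1 and 33.0 CPM for the genes with 3′ UTR clusters and 4.97 CPM for all genes. Because the mRNA-seq was poly(A) selected, RNAs without a poly(A) tail are poorly measured in it. By score, the median was 0.83 CPM for the 47 genes whose cyclosporine A cluster ranked between 1 and 10% of the list, and 9.85 CPM for the 331 genes with a cluster in the lower 50%. For vehicle clusters the median was 9.83 CPM for the 8 genes in the top 1%, 2.4 CPM for the 81 genes between 1 and 10%, and 12.9 CPM for the 431 genes in the lower 50%.

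Of the long non-coding RNAs on the gene lists examined, MALAT1 and NEAT1 had the most member clusters, and their RNA levels changed in opposite directions. MALAT1, an abundant RNA of nuclear speckles, had 5 clusters in the cyclosporine A list and 1 in the vehicle list. NEAT1, the scaffold of nuclear paraspeckles, had 2 clusters in the cyclosporine A list and 7 in the vehicle list. Neither had a member cluster in the pan-AGO list. These counts of clusters come from 1 list per treatment, so the difference has no replicate check.

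MALAT1 stood at 5681, 6244, 6415 and 5473 CPM with cyclosporine A, against 5560, 4930, 4943 and 4644 CPM with vehicle. The highest vehicle library lay above the lowest cyclosporine A library, so the groups overlapped. MALAT1 rose by a log2 fold of 0.25 ± 0.06 (edgeR adjusted p = 0.00056). NEAT1 stood at 923, 947, 859 and 844 CPM with cyclosporine A, against 2081, 2194, 2100 and 1753 CPM with vehicle, with no overlap. NEAT1 fell by 1.19 ± 0.06 on the log2 scale (edgeR adjusted p = 1.9e-24).

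The cluster of each gene that was shared by both AGO2 lists, and the best-ranked NORAD cluster of the cyclosporine A list, are given here for their position within long RNAs, with capitals for the bases also in a vehicle cluster.
MALAT1: TTTGCATTGGACTTTGA
NEAT1: AATTTTCGCTCGGCCTGGGAcg
NORAD: catctcttggctgtactata

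The shared MALAT1 cluster, at chr11:65267799-65267815, ranked 5436 with cyclosporine A and 12987 with vehicle. The other 4 MALAT1 clusters of the cyclosporine A list ranked between 11767 and 24920 and had no vehicle partner. The shared NEAT1 cluster, at chr11:65190861-65190882, ranked 7003 with cyclosporine A and 19252 with vehicle. The other shared NEAT1 cluster, annotated TTS, lay on the minus strand, opposite to the remaining NEAT1 clusters, at ranks 28125 and 49063. NORAD, a cytoplasmic RNA that binds Pumilio proteins, had 1 cluster in the cyclosporine A list at rank 19438, at chr20:34634074-34634093, and 3 in the vehicle list at ranks 42355 to 52231, none of which overlapped it. None of the MALAT1, NEAT1 or NORAD clusters of 30 bases or less held a 7-base match to the seeds searched.

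OIP5-AS1, a conserved cytoplasmic long non-coding RNA, carried the hsa-miR-92a-3p match shown above in both AGO2 lists, at rank 16804 with cyclosporine A and 20806 with vehicle, and the match ran on into an adenine, as an 8-base site does. Its level was 15.4, 21.5, 16.3 and 24.5 CPM with cyclosporine A, against 15.5, 16.7, 16.1 and 15.6 CPM with vehicle. A pair of cyclosporine A libraries stood above all vehicle libraries, and the other pair lay within or just below their range. The log2 fold of 0.27 ± 0.13 did not pass (edgeR adjusted p = 0.0596), and it passed with adjusted p values of 0.0114 and 0.0217 without cyclosporine A library 1 or 3 and with 0.0486 when the filter on low counts was dropped.

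Among the 19 snoRNA host and growth-arrest non-coding genes listed, 4 had a member cluster. Of the 17 tested, 6 rose, 6 fell and 5 did not pass, with a median log2 fold of -0.03, beside 33.3% of all 12855 genes tested that rose, 33.5% that fell and 66.9% that passed in either direction. SNHG11 had its TTS cluster at chr20:37080248-37080268 in all 3 lists, at ranks 5909, 7216 and 5813 for cyclosporine A, vehicle and pan-AGO, and fell by 0.41 ± 0.15 on the log2 scale (edgeR adjusted p = 0.0123), a call that was lost with DESeq2 (adjusted p = 0.0715) and without vehicle library 2 (adjusted p = 0.0509). SNHG4, with a vehicle cluster, fell by 0.62 ± 0.21 (edgeR adjusted p = 0.0074), lost with DESeq2 (adjusted p = 0.0503) and without cyclosporine A library 2 (adjusted p = 0.0521). SNHG15, with 1 cyclosporine A and 2 vehicle clusters, had a log2 fold of 0.14 ± 0.10 that did not pass (edgeR adjusted p = 0.206), and SNHG17, with 1 cyclosporine A cluster, was not analysed here for its level. The listed genes that rose were GAS5 at a log2 fold of 0.99, ZFAS1 at 1.41, EPB41L4A-AS1 at 1.31, SNHG5 at 1.02, CYTOR at 1.02 and SNHG6 at 0.64. None of these had a member cluster in any cluster list. Nor did SNHG3, SNHG10, SNHG12 and DANCR, which fell, or SNHG1, SNHG7, SNHG8 and SNHG9, which did not pass.

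Of the 13 miRNA host genes listed, 4 had a member cluster, each a single vehicle cluster annotated non-coding. Of all 347 matched genes with a non-coding cluster in an AGO2 list, 162 had it only in the vehicle list, which is longer. MIR17HG, the host of the miR-17 cluster of miRNAs, fell by 0.88 ± 0.22 on the log2 scale (3.70 ± 0.99 CPM with cyclosporine A against 6.77 ± 1.03 CPM with vehicle, SD, n = 4 each, edgeR adjusted p = 0.00042). DLEU2, the host of miR-15a and miR-16, had a log2 fold of -0.54 ± 0.32 that did not pass (edgeR adjusted p = 0.13), although it passed without cyclosporine A library 4 (adjusted p = 0.0398) or vehicle library 3 (adjusted p = 0.0388), and MIR100HG and DNM3OS had 5 counts and 1 count in all. Of the 5 miRNA hosts tested, 1 rose, 3 fell and 1 did not pass, beside the 33.3% of all genes tested that rose and the 33.5% that fell. Of the 23 other long non-coding RNAs listed, 7 had a member cluster. Of the 13 tested, 3 rose, 5 fell and 5 did not pass, beside the 66.9% of all genes tested that passed. CYTOR stands in both that list, under its older name LINC00152, and the list of snoRNA host and growth-arrest genes. UCA1 and KCNQ1OT1 had their only member cluster in the pan-AGO list, and UCA1 fell by 1.46 ± 0.24 (edgeR adjusted p = 3.8e-07). Of the 14 small structured RNAs listed, only SCARNA2 had a member cluster, in the vehicle list. SCARNA2 did not pass the test (log2 fold -0.05 ± 0.31, edgeR adjusted p = 0.892).

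The seed search covered clusters of 30 bases or less outside chromosome M, on the cluster's own strand. The 7-base matches, each the complement of miRNA bases 2 to 8, were ATAAGCT for hsa-miR-21-5p and its family, TGTTTAC for hsa-miR-30a-5p, CTACCTC for hsa-let-7i-5p, TACTTGA for hsa-miR-26a-5p, ACAGGGT for hsa-miR-10a-5p, ATGTAGC for hsa-miR-222-3p and GTGCAAT for hsa-miR-92a-3p. The next were ATGAAGG for hsa-miR-205-5p, CAGTATT for hsa-miR-200b-3p, TGAATGT for hsa-miR-181a-5p, ACCGAGC for hsa-miR-423-3p, GCACTTT for hsa-miR-20a-5p, ACTGTGA for hsa-miR-27b-3p and GTGCCAT for hsa-miR-183-5p. The rest were AGCATTA for hsa-miR-155-5p, GTCTTCC for hsa-miR-7-5p, TGGTGCT for hsa-miR-29a-3p, GGCAGCT for hsa-miR-22-3p, TTGCCAA for hsa-miR-182-5p and CAGTGTT for hsa-miR-200a-3p. In the cyclosporine A list, 27 of 761 members (3.55%, 2.45 to 5.11%) held at least 1 match, against 2.57% of the other clusters (2.41 to 2.75%) and 3.10% of 3′ UTR clusters (1.92 to 4.98%). In the vehicle list it was 40 of 1138 members (3.51%, 2.59 to 4.75%), against 2.72% (2.59 to 2.86%) of the others and 3.03% (2.01 to 4.54%) of 3′ UTR clusters. For these 7-base matches, the members' intervals took in the 3′ UTR share and the share of the other clusters in both lists. With 8-base sites, vehicle members stood at 0.791% (0.417 to 1.5%), below the 1.65% (0.947 to 2.86%) of vehicle 3′ UTR clusters, and the intervals overlapped. A match is a description of letters and does not show which miRNA, if any, led Argonaute there.

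**Figure D3:**
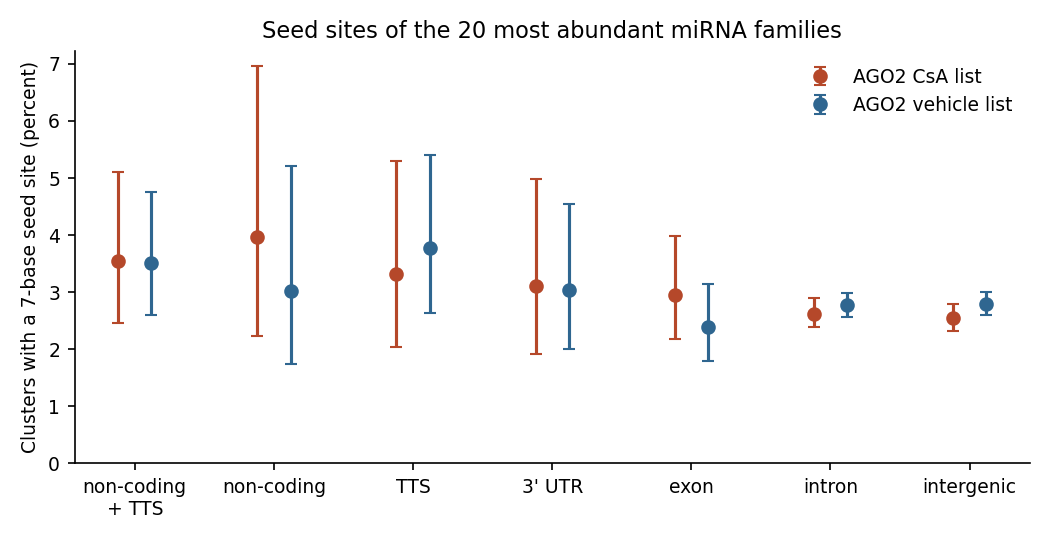
Share of clusters of 30 bases or less with a 7-base seed match of the 20 most abundant miRNA families (y axis, percent) by annotation class (x axis), in the AGO2 cyclosporine A list (red) and vehicle list (blue), with Wilson 95% intervals. The members stand at 3.55% with cyclosporine A and 3.51% with vehicle, with intervals that include the 3′ UTR values of 3.10% and 3.03%.

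The miRNAs with most matches were not the most abundant. hsa-miR-21-5p, a miRNA of many epithelial cells, stood at 475793, 502603, 723314 and 676553 CPM with cyclosporine A, against 618752, 514769, 607263 and 642081 CPM with vehicle, and its match was in 0 members of the cyclosporine A list and 2 of the vehicle list. The other clusters of the cyclosporine A and vehicle lists held the hsa-miR-21-5p match in 0.13% and 0.128% of cases, beside 0.176% of vehicle members. The hsa-miR-30a-5p match was in no member of either list, and in 0.132% and 0.115% of the other clusters. The hsa-let-7i-5p match was in 1 vehicle member (0.0879%), and in 0.0144% and 0.0278% of the other clusters. hsa-miR-205-5p, at 8194, 8971, 7674 and 7118 CPM with cyclosporine A against 9126, 10979, 9474 and 8843 CPM with vehicle, had the most, 7 in the cyclosporine A list and 8 in the vehicle list. hsa-miR-27b-3p had 4 and 7, hsa-miR-181a-5p 2 and 7, hsa-miR-29a-3p 3 and 4, hsa-miR-222-3p 2 and 3, and hsa-miR-92a-3p 2 and 3. In each of these pairs the first count is for the cyclosporine A list, which is shorter. ATGAAGG stood in 0.92% of cyclosporine A members and 0.334% of the other clusters there, and in 0.703% of vehicle members and 0.419% of the other vehicle clusters. The 7 cyclosporine A members with ATGAAGG include the clusters at LOC441455 and MKRN1, which share a stretch of 21 bases and are counted separately. The hsa-miR-27b-3p match stood in 0.526% of cyclosporine A members and 0.541% of the other clusters there, and in 0.615% of vehicle members and 0.519% of the other vehicle clusters. The hsa-miR-181a-5p match stood in 0.263% of cyclosporine A members and 0.248% of the other clusters there, and in 0.615% of vehicle members and 0.25% of the other vehicle clusters. For hsa-miR-29a-3p the same shares, in that order, were 0.394%, 0.271%, 0.351% and 0.269%. They were 0.263%, 0.155%, 0.264% and 0.119% for hsa-miR-222-3p, and 0.263%, 0.0633%, 0.264% and 0.0872% for hsa-miR-92a-3p.

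Of the 10 lead miRNAs whose match stood in members at least 2 times over both AGO2 lists, 2 changed in level, beside 11.3% of 470 miRNAs tested, with 4.89% that rose and 6.38% that fell. Over all miRNAs, 23 rose and 30 fell, and without vehicle library 3 it was 14 and 15. hsa-miR-7-5p stood at 2317, 2370, 2638 and 2999 CPM with cyclosporine A, against 4882, 5332, 5737 and 4992 CPM with vehicle. The groups did not overlap, and it fell by 1.02 ± 0.11 on the log2 scale (edgeR adjusted p = 9.8e-06). Its match was in 1 member of the cyclosporine A list and 3 of the vehicle list, among them the SIGLEC12 cluster, which ranked 14095 with cyclosporine A and 3464 with vehicle. SIGLEC12, a sialic acid-binding lectin gene, had 0 counts in the mRNA libraries. hsa-miR-29a-3p stood at 6569, 6313, 6883 and 5999 CPM with cyclosporine A, against 4651, 4767, 4253 and 5212 CPM with vehicle, without overlap, and rose by 0.45 ± 0.10 (edgeR adjusted p = 0.0098). hsa-miR-205-5p (log2 fold -0.27 ± 0.11, adjusted p = 0.138), hsa-miR-181a-5p (0.26 ± 0.11, adjusted p = 0.168), hsa-miR-92a-3p (0.03 ± 0.11, adjusted p = 0.885), hsa-miR-27b-3p (-0.11 ± 0.11, adjusted p = 0.564) and hsa-miR-222-3p (0.31 ± 0.12, adjusted p = 0.121) did not pass in edgeR's test. Nor did hsa-miR-21-5p (0.00 ± 0.13, edgeR adjusted p = 0.991), hsa-miR-182-5p (0.15 ± 0.12, edgeR adjusted p = 0.451) or hsa-miR-200a-3p (0.05 ± 0.11, edgeR adjusted p = 0.84). hsa-miR-222-3p passed edgeR's test without cyclosporine A library 2 (adjusted p = 0.0144) and with the replicate number as a block (adjusted p = 0.0267). Of the families with fewer matches, hsa-miR-10a-5p, with 1 match in the vehicle list, fell by 0.47 ± 0.11 (edgeR adjusted p = 0.0098), and hsa-miR-155-5p, with none, rose by 0.49 ± 0.10 (edgeR adjusted p = 0.0056).

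The seed matches of the members fell in 67 clusters at 56 loci, 11 of which had the match in both AGO2 lists. Their genes included 39 in the mRNA table, of which 9 had 0 counts and 26 were tested. Of these, 13 rose, 5 fell and 8 did not pass, so 69.2% were called beside 66.9% of all genes tested. The highest-ranked member with a match in the cyclosporine A list was at LOC101928437 on chromosome X, with an hsa-miR-205-5p match at rank 442, a pan-AGO cluster at rank 1162 and no vehicle cluster. In the vehicle list it was PRNCR1, with an hsa-miR-27b-3p match at rank 243 and at rank 948 with cyclosporine A. Neither gene was analysed here for its level.

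CPT1A, which encodes the enzyme that links fatty acids to carnitine for entry into mitochondria, had the largest rise of all member genes past the count minimum. Its TTS cluster with the hsa-miR-181a-5p match, which extends to the 8-base site, ranked 798 with cyclosporine A and 3275 with vehicle. The mRNA stood at 28.4, 33.5, 36.6 and 26.1 CPM with cyclosporine A, against 1.84, 1.29, 2.33 and 1.58 CPM with vehicle. Every cyclosporine A library lay above every vehicle library. The log2 fold was 4.13 ± 0.18 (edgeR adjusted p = 7.1e-28). The ranks come from lists of different length made after 24 h and the mRNA from 48 h, so they cannot be set against each other as a change in binding.

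YAF2, a partner of Polycomb complexes, had a TTS cluster with an 8-base hsa-miR-205-5p site at rank 2862 with cyclosporine A and 4623 with vehicle. Its mRNA averaged 15.2 ± 2.22 CPM with cyclosporine A and 9.71 ± 2.31 CPM with vehicle (SD, n = 4 each) and rose by 0.66 ± 0.15 on the log2 scale (edgeR adjusted p = 0.00013). SPRYD3, with an hsa-miR-222-3p match at ranks 25776 and 44828 in the same lists, averaged 32.0 ± 2.80 CPM with cyclosporine A and 13.8 ± 1.37 CPM with vehicle and rose by 1.20 ± 0.11 (edgeR adjusted p = 3.3e-14). OR51D1, an olfactory receptor gene, had its match at ranks 18463 and 9381 and 0 counts in mRNA. Of the AGO2 lists, the vehicle list alone held a match in a non-coding cluster of DUSP10, a MAP kinase phosphatase, with an hsa-miR-181a-5p match at rank 20266, and a non-coding cluster of the death receptor FAS, with an 8-base hsa-miR-205-5p site at rank 27661, which overlapped a pan-AGO cluster at rank 8117.

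The LOC441455 cluster shared its first 21 bases with a cluster at the TTS of MKRN1, an E3 ubiquitin ligase gene, at chr7:140154991-140155011 on the minus strand. The stretch is shown because RNA from these places cannot be told apart by these letters. A further, intergenic cluster of the cyclosporine A list carried all 22 bases of the LOC441455 cluster.
MKRN1: gATGAAGGacgtgggagctgc

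The MKRN1 cluster ranked 16963 in the cyclosporine A list, and the LOC441455 cluster 15815 in that list and 34924 in the vehicle list. MKRN1 stood at 96.9 ± 4.42 CPM with cyclosporine A and 91.4 ± 5.81 CPM with vehicle, and LOC441455 at 2.93 ± 1.15 CPM with cyclosporine A and 2.47 ± 0.45 CPM with vehicle (SD, n = 4 each). Neither passed the test, with log2 folds of 0.08 ± 0.07 (edgeR adjusted p = 0.264) for MKRN1 and 0.24 ± 0.30 (edgeR adjusted p = 0.477) for LOC441455. In all, 19 members of the cyclosporine A list (2.31%) and 23 of the vehicle list (1.90%) had a sequence identical to that of another cluster of their list, against 1.58% and 1.35% of the other clusters. UBBP4, a ubiquitin pseudogene made of repeated units, gave a pair of identical 26-base clusters and shared a 66-base sequence with a cluster at UBB itself in the cyclosporine A list.

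The genes named by members changed about as often as all genes. Of 226 genes with a non-coding cluster in either AGO2 list that could be tested, 79 (35.0%) rose, 69 (30.5%) fell and 78 did not pass, with a median log2 fold of 0.01. Of 513 genes with a TTS cluster, 160 (31.2%) rose, 181 (35.3%) fell and 172 did not pass, with a median of -0.05. The shares called were 65.5% and 66.5%, beside 66.9% of all genes tested. These are the members that passed the filter on low counts, out of 532 symbols with a non-coding cluster, of which 347 were in the table, and 1014 with a TTS cluster, of which 852 were.

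**Figure D4:**
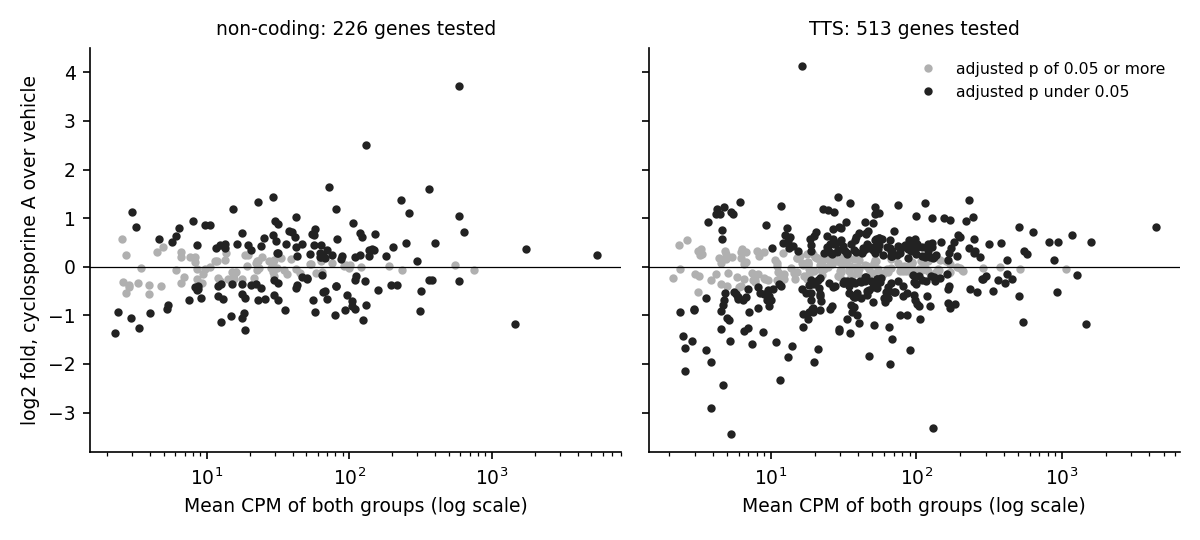
log2 fold of mRNA, cyclosporine A over vehicle (y axis), against the mean CPM of both groups (x axis, log scale), for tested genes with a non-coding cluster (left, 226 genes) or a TTS cluster (right, 513 genes) in an AGO2 list. Dark points passed edgeR's test at an adjusted p under 0.05, and the points lie on both sides of 0 in both panels. The points farthest from 0 include CPT1A at 4.13 and IGFBP3 at -3.31 in the right panel and PLIN2 at 3.72 in the left.

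Splitting the genes by the list that held their cluster gave rises and falls in every split, beside 33.3% of all genes tested that rose and 33.5% that fell. Among genes with a non-coding cluster only in the cyclosporine A list, 26 of 65 tested rose and 16 fell, with a median log2 fold of 0.12. With a non-coding cluster only in the vehicle list, 37 of 112 rose and 40 fell, with a median of -0.07, and with such clusters in both AGO2 lists 16 of 49 rose and 13 fell, with a median of 0.01. For TTS clusters, 40 of 131 rose and 49 fell where only the cyclosporine A list held the cluster, with a median of -0.09, and 85 of 265 rose and 91 fell where only the vehicle list did, with a median of -0.05. Where both AGO2 lists held a TTS cluster, 35 of 117 rose and 41 fell, with a median of -0.03.

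The genes with non-coding clusters that rose most, among those past the test with a mean of at least 50 counts, were all protein coding. PLIN2, a coat protein of lipid droplets, stood at 1081, 1078, 1131 and 1093 CPM with cyclosporine A, against 76.5, 83.4, 79.4 and 94.8 CPM with vehicle, a log2 fold of 3.72 ± 0.07 (edgeR adjusted p = 7.1e-47). DUSP10 stood at 249, 231, 189 and 225 CPM with cyclosporine A, against 41.1, 37.2, 35.1 and 44.3 CPM with vehicle, a log2 fold of 2.50 ± 0.08 (edgeR adjusted p = 2.6e-35). For both genes every cyclosporine A library lay above every vehicle library. Their clusters were low in the vehicle list, at rank 24236 for PLIN2 and ranks 20266 and 50625 for DUSP10, out of 56985. The DUSP10 cluster at rank 20266 lay on the gene's own minus strand. The DUSP10 cluster at rank 50625 lay on the opposite, plus strand. KLF10, a transcription factor induced by TGF-beta, rose by 1.64 ± 0.08, SLC3A2, the heavy chain of several amino acid transporters, by 1.60 ± 0.07, SHE by 1.43 ± 0.11 and SARS, the cytosolic seryl-tRNA synthetase, by 1.37 ± 0.06, with edgeR adjusted p values from 6.1e-29 to 1.4e-17. KLF10 had a member cluster in both AGO2 lists, and SLC3A2 had one in the cyclosporine A list alone. Of the AGO2 lists, only the vehicle list held member clusters of the other genes named here. Those of SARS lay on both strands and those of SHE on the plus strand. Of all 226 tested genes with a non-coding cluster in an AGO2 list, 112 had it only in the vehicle list.

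The falls among non-coding clusters were smaller, and 5 of the 6 genes named had their cluster in the vehicle list but not in the cyclosporine A list, as did 112 of all 226 tested genes with a non-coding cluster. The death receptor FAS stood at 9.87, 9.77, 11.5 and 7.93 CPM with cyclosporine A, against 21.4, 18.8, 21.0 and 17.4 CPM with vehicle, without overlap, and fell by 1.01 ± 0.14 on the log2 scale (edgeR adjusted p = 3.9e-09). CASP9, the initiator caspase of the mitochondrial pathway, fell by 1.05 ± 0.12, ASIC1, an acid-sensing ion channel, by 1.10 ± 0.06, and the pseudogenes CROCCP3 by 1.13 ± 0.15 and DUSP5P1 by 1.30 ± 0.14. NEAT1, described above, was the sixth. The FAS cluster lay on the gene's own plus strand. The CASP9 cluster lay on the plus strand and the ASIC1 cluster on the minus strand, and the strand of these genes is not given here.

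**Figure D5:**
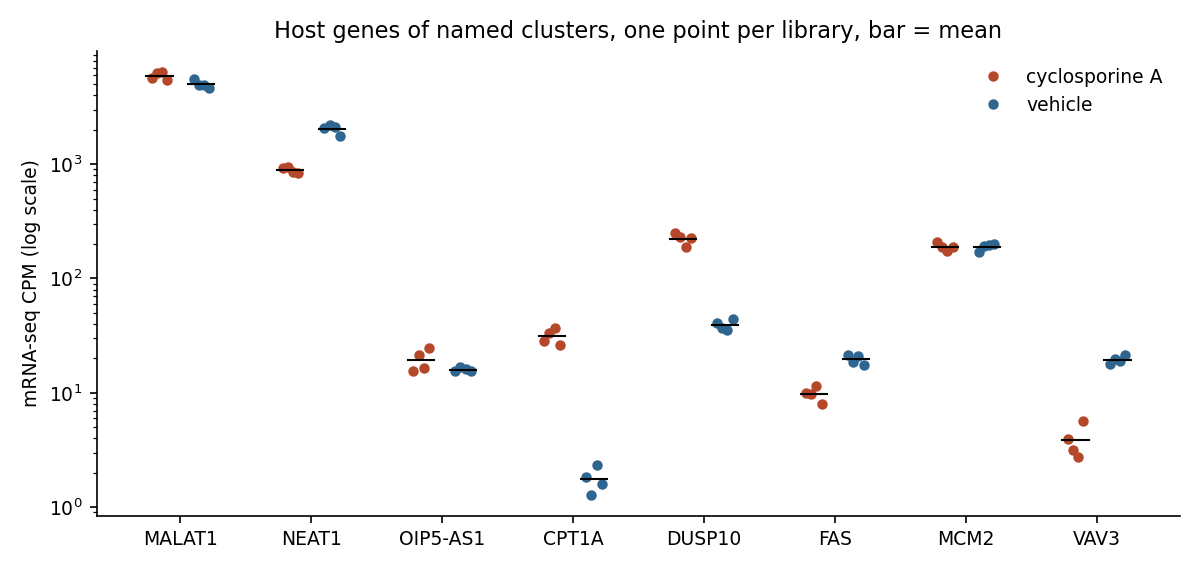
mRNA-seq level in CPM (y axis, log scale, not scaled for gene length) of 8 genes with a member cluster, cyclosporine A libraries (red) left of vehicle libraries (blue), 1 point per library and a bar at the mean. NEAT1, FAS and VAV3 are lower with cyclosporine A and CPT1A and DUSP10 higher without overlap, while MCM2, OIP5-AS1 and MALAT1 overlap between groups.

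Among genes with TTS clusters, CPT1A led the rises, followed by SHE and SARS, which carried both annotations, IL6R, the interleukin 6 receptor, at 1.32 ± 0.07, POLR3D, a subunit of RNA polymerase III, at 1.31 ± 0.09, and ODC1, which makes the polyamine precursor putrescine, at 1.27 ± 0.08. The largest fall among genes with a mean of at least 50 counts was in IGFBP3, a carrier of insulin-type growth factors, at 24.7, 23.9, 22.1 and 24.5 CPM with cyclosporine A, against 234, 241, 247 and 224 CPM with vehicle, a log2 fold of -3.31 ± 0.08 (edgeR adjusted p = 1.6e-41). VAV3 stood at 3.91, 3.18, 2.76 and 5.63 CPM with cyclosporine A, against 17.7, 19.7, 18.8 and 21.5 CPM with vehicle, a log2 fold of -2.32 ± 0.17 (edgeR adjusted p = 9.5e-18). Both genes were lower in every cyclosporine A library than in any vehicle library. CCBE1 fell by 1.99 ± 0.09, SPACA6 (LINC00085 in the table) by 1.96 ± 0.13, PRRT3 by 1.85 ± 0.15 and SLC29A4, a monoamine transporter, by 1.83 ± 0.10. The clusters of IGFBP3, CCBE1, SPACA6 and SLC29A4 were in the vehicle list alone, that of PRRT3 in the cyclosporine A list alone at rank 36716, near the end of its 36812 clusters. Of all 513 tested genes with a TTS cluster in an AGO2 list, 265 had it only in the vehicle list and 131 only in the cyclosporine A list.

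VAV3 also had the highest-scoring member cluster of the cyclosporine A list. It carried 5 TTS clusters in the cyclosporine A list, 6 in the vehicle list and 6 in the pan-AGO list, all on the minus strand between chr1:108113081 and chr1:108113604. The best ranked 79 with cyclosporine A, overlapped a vehicle cluster at rank 128 and a pan-AGO cluster at rank 91, and lay apart from the best vehicle cluster, at rank 82, which overlapped no cyclosporine A cluster. All 5 cyclosporine A clusters and 5 of the 6 vehicle clusters shared a stretch of at least 15 bases with clusters that the same lists annotate as rRNA. The vehicle cluster at rank 82 did not. By the shared bases alone, RNA from this place and rRNA cannot be told apart.

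In all, 20 members of the cyclosporine A list (2.44%, 1.58 to 3.73%) shared 15 bases with a cluster annotated as rRNA, tRNA or snRNA, 9 with rRNA, 9 with tRNA and 2 with snRNA, and together they held 18.7% of the members' score. In the vehicle list it was 25 members (2.07%, 1.41 to 3.04%), 10 with rRNA, 12 with tRNA and 3 with snRNA, and 12% of the score. The other clusters of the lists shared such a stretch in 2.12% and 1.55% of cases and 3′ UTR clusters in 0.755% and 0.401%. Several tRNA-type members were about as long as a whole tRNA, among them MIR4638 (73 bases, rank 905 with cyclosporine A), LINC00324 (74 bases, rank 2450), HES7 (80 bases, rank 3066) and a pair of LOC440570 clusters (72 bases each, ranks 4631 and 14942). In the vehicle list the TTS cluster of MIR4521, 73 bases long at rank 3008, was also among the tRNA-type members and shared 16 bases with hsa-miR-5100. Part of it is shown, at chr17:8090524-8090553 on the plus strand, beside the mature miRNA, with the shared bases of the cluster in capitals and the seed of the miRNA in capitals.
hsa-miR-5100: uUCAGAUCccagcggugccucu
MIR4521: atcctgggttcgaATCCCAGCGGTGCCTCc

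On chromosome M there were 17 members with cyclosporine A, 9 with vehicle and 1 in the pan-AGO list, all on the plus strand. In the cyclosporine A list they ran from base 1819 to base 3710, and in the vehicle list from base 1605 to base 4202, with widths of 18 to 210 bases with cyclosporine A and 20 to 535 bases with vehicle. The best ranked 456 with cyclosporine A and 417 with vehicle. The vehicle clusters were fewer and wider, so the 26 AGO2 clusters and the pan-AGO cluster merged into 9 places, of which 6 were in both AGO2 lists only, 1 in all 3 lists and 2 in the vehicle list alone. The count of 17 against 9 therefore does not stand for more places with cyclosporine A.

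A cyclosporine A cluster of 59 bases on chromosome M, at rank 9232, and a vehicle cluster of 238 bases, at rank 2792, contained all 20 bases of hsa-miR-4485-3p, a miRNA whose annotated gene is on chromosome 11. The stretch at chrM:2560-2589 is printed beside the miRNA, with the shared bases of the cluster and the seed of the miRNA in capitals.
hsa-miR-4485-3p: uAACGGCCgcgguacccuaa
chromosome M: atgttTAACGGCCGCGGTACCCTAAccgtg

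Some nuclear members, MIR4485 itself among them, carried the same letters as clusters on chromosome M. In the cyclosporine A list 6 nuclear members (0.746%, 0.342 to 1.62%) shared 15 bases with a chromosome M cluster of the same list, against 0.228% of the other nuclear clusters and 0.943% of 3′ UTR clusters, and in the vehicle list 7 did (0.584%, 0.283 to 1.20%), against 0.201% and 0.668%. They were TTS clusters of MIR4485, of MIR6723 and of MTRNR2L4, MTRNR2L6, MTRNR2L7 and MTRNR2L1, the last 4 being nuclear copies related to the mitochondrial 16S rRNA gene. MIR4485 ranked 5735 with cyclosporine A, and its 3 vehicle clusters ranked 7889, 9491 and 40170. Whether these reads came from mitochondrial RNA was not tested.

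The mRNA libraries held 3965431 to 7041604 counts and the miRNA libraries 6664231 to 9184278. The epithelial markers KRT8, KRT18, KRT19 and EPCAM and the tubule genes GGT1 and MME were detected, whereas the proximal tubule markers LRP2, CUBN, AQP1 and SLC22A6 had at most 17 counts, and SLC34A1 and ANPEP 27 and 28 counts, over all 8 mRNA libraries. The proximal tubule marker SLC5A2 stood at 39.6 CPM with cyclosporine A and 38.9 CPM with vehicle. Of the other epithelial markers, CDH2 stood at 140 CPM with cyclosporine A and 204 CPM with vehicle, and CDH1 at 1.57 and 8.71 CPM. Markers of collecting duct, endothelium and leukocytes (AQP2, PECAM1, PTPRC and CD3E) were at 0 counts. The distal tubule marker SLC12A3 had 80 counts and the endothelial marker CDH5 had 2 counts over all 8 mRNA libraries. The fibroblast-associated genes DCN and COL1A1 stood at 48.6 and 5.36 CPM with cyclosporine A and at 96.1 and 15.6 CPM with vehicle, and their part in the results was not tested.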

How the data were processed

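Whole-number counts per gene and per mature miRNA were deposited by the authors, and the submitters' processing notes name CASAVA 1.8.2, cutadapt, Bowtie, TopHat, HTSeq, DESeq2 and hg19, without roles or settings. The AGO2 and pan-AGO cluster lists give, per the file headers, coordinates, strand, annotation, symbol, sequence and a score per cluster, and the authors' deposited score has no stated unit, caller or filter, so it served only within a list, to rank clusters and to give shares of summed score. How the 2 libraries of a treatment entered a list was not stated. Coordinates are printed 1-based in hg19. The sequences of the pan-AGO list were not used, because their length equalled the interval in only 2692 of 19306 clusters.

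Counts of 8 mRNA and 8 miRNA libraries were tested with edgeR 4.0.16 (R 4.3.3, TMM scaling, filterByExpr, quasi-likelihood test, Benjamini-Hochberg adjustment over 12855 genes or 470 miRNAs, threshold 0.05), with 4 libraries per group and no covariate. On simulated data with a true log2 fold of 1, the test recovered 190 of 200 changed genes of 12757, with 11 false calls. It recovered 200 of 200 changed miRNAs of 463, with 2 false calls. Features of few counts were not among those changed, and the simulated spread between libraries was the same for all features. The rates therefore do not speak for genes of few counts or for the spread seen between the miRNA libraries. Levels (CPM) are counts scaled to a common library total and are not scaled for gene length. A library total of 3965431 to 7041604 mRNA counts or 6664231 to 9184278 miRNA counts sets the precision of low levels. Shares have Wilson 95% intervals. Symbols were matched to RefSeq (GRCh38.p14) for gene kind and strand, and 2281 of 2586 miRNA rows, with 97.6% of CPM, matched a RefSeq mature sequence. Seed families were ranked by vehicle CPM, and the 20 used hold 91.8% of it.

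Genes were named by rule: per AGO2 list the 8 symbols with the highest-scoring cluster of each annotation, up to 10 symbols present in all 3 lists, the 6 largest rises and falls per annotation with a mean of at least 50 counts, the top 5 chromosome M clusters, and members of 4 gene lists. The members, lists and rule were chosen with earlier results of these data known. Genes named for seed matches, repeated letters, or letters shared with structured or mitochondrial RNA were chosen after their values were seen. Alternatives were DESeq2 1.42.0, no filter on low counts, the replicate number as a block, leaving out each library, other overlap and seed rules, and other ways to count clusters.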

Additional observations from a re-analysis of the deposited data

Results flagged for a closer look

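In 92 groups of 4 libraries examined, 3 held a library far from the other 3, and chance gives such a flag in about 1 in 20 groups. FKBP1AP1, an FKBP1A pseudogene with a non-coding cluster at rank 1837 of the cyclosporine A list, stood at 4.52 CPM in vehicle library 4 and at 3.39 to 3.5 CPM in the other vehicle libraries. ODC1, with a vehicle TTS cluster, stood at 38.9 CPM in vehicle library 1 and at 45.1 to 46.3 CPM in the others. hsa-miR-200a-3p, with 2 member matches in each AGO2 list, stood at 4330 CPM in vehicle library 4 and at 3770 to 3810 CPM in the others.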

How the results depend on the processing

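Clusters without a gene symbol, among them the intergenic ones, drop out when each symbol is counted once. The members' symbols were then 8.16% of all symbols in the cyclosporine A list, 9.55% in the vehicle list and 6.39% in the pan-AGO list. These shares have another base than the shares of all clusters and cannot be set against them. In the upper 50% of both AGO2 lists by score, the overlap of cyclosporine A members with vehicle clusters was 59.5%. With 8-base sites 0.92% of cyclosporine A and 0.791% of vehicle members held a match, and with 6-base sites 9.99% and 9.84%.

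Calls among miRNAs moved most. With the replicate number as a block, 43 rose and 49 fell. With 1 library left out, 14 to 29 rose and 15 to 29 fell, the lowest of both without vehicle library 3. Same-numbered libraries correlated between -0.08 and 0.03 for mRNA and between -0.06 and 0.34 for miRNA. Not every library correlated best with its own number, but the highest miRNA correlation, 0.34, was between the libraries numbered 2. The labels do not say whether the numbers pair libraries, and these values cannot decide it. hsa-miR-222-3p passed under the block (adjusted p = 0.0267). Under the replicate block 4243 genes rose and 4243 fell, and of the member genes 77 and 159 with non-coding and TTS clusters rose and 69 and 179 fell. Direction changed only for folds near 0: leaving out 1 library gave MCM2 -0.04 to 0.05, SCARNA2 -0.26 to 0.07, hsa-miR-21-5p -0.08 to 0.10 and hsa-miR-92a-3p -0.01 to 0.13, and hsa-miR-21-5p was 0.00 with DESeq2 and 0.00 without a filter. Of 616 values over 56 named genes, 591 kept direction and side of the threshold, and 5 genes lost a call somewhere: SNHG4, SNHG11, FKBP1AP1, MIR155HG and TP53TG1. OIP5-AS1, CCDC115 and DLEU2 gained one, and the cause was not tested.

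The lists have no replicates, depth limits genes of few counts, and scores of unknown unit cannot be compared between lists.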
